A study of Mus musculus with 6 samples.

Results

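Peaks of open chromatin at the annotated start sites of small noncoding RNA genes were compared between intestinal organoids of young and aged mice. A peak was included when the deposited annotation gave the gene with the nearest start site the type miRNA, snoRNA, snRNA, scaRNA or misc_RNA (Y RNA, 7SK, 7SL, vault RNA and similar genes) and placed the peak's centre at most 1000 bp from that start. This rule found 997 of 156733 peaks, at 915 genes, and used no measured value. Of these, 465 peaks lay at 424 miRNA genes, 266 at 242 snoRNA genes, 179 at 170 snRNA genes, 82 at 74 misc_RNA genes and 5 at 5 scaRNA genes. The organoids were grown from small-intestinal epithelium of C57BL/6JRj mice, received no treatment and carried no genetic change named in the labels. The 3 young libraries came from mice aged 2 to 3 months and the 3 aged libraries from mice aged 20 to 22 months. In each age, replicate 1 was harvested at passage 4, replicate 2 at passage 3 and replicate 3 at passage 2, after 3 to 5 weeks of culture. Organoids hold epithelial stem cells and their progeny without the immune and stromal cells of the gut wall. Whether each library stands for its own animal is not stated in the labels, so the p-values below cover the spread among these 6 libraries, which may be technical.

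Small noncoding RNAs act as guides and structural parts rather than as templates for protein. A miRNA is cut from a hairpin in a longer primary transcript by Drosha and Dicer, is loaded into an Argonaute protein and pairs with target mRNAs through its seed, and many hairpins lie in introns of coding genes. The snRNAs form the core of the spliceosome, snoRNAs guide the processing and chemical modification of ribosomal RNA, and scaRNAs guide the modification of snRNAs in Cajal bodies. Most snoRNAs are cut from introns of host genes, whereas U6, 7SK, 7SL, Y and vault RNAs have their own RNA polymerase III promoters. In the gut epithelium, the miR-200, miR-194 and miR-375 families are known as epithelial miRNAs.

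The mature miRNAs of 222 of the 424 miRNA genes were found in the RefSeq table of GRCm38.p6, and they numbered 382 with 359 different seeds. Those below belong to the miRNA genes whose peaks differed between the ages, except AL589879.2 and Gm24187, for which no sequence was found. The rest belong to some of the epithelial or let-7 genes that share a seed with another gene of the set. A single mature form is shown per gene. The seed, bases 2 to 8, is in capitals.
mmu-miR-6926-5p: uCAGUGGGgugagggaugguga
mmu-miR-194-2-3p: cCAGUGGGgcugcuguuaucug
mmu-miR-6943-5p: uGGGGUGAgguuggaagcua
mmu-miR-7034-5p: uCCGGGAGggauggaugugcu
mmu-miR-6896-5p: uUUGUAGGcgacgagaacccgu
mmu-miR-1905: cACCAGUCccaccacgcgguag
mmu-miR-1983: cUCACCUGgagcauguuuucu
mmu-miR-6546-5p: aGGCGCCUcugagcuugugcuugu
mmu-miR-200a-3p: uAACACUGucugguaacgaugu
mmu-miR-141-3p: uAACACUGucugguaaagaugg
mmu-let-7i-5p: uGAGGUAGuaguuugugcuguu
mmu-let-7g-5p: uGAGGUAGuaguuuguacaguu
Of the 359 seeds, 20 occurred at more than 1 gene. The mature miR-6926-5p and miR-194-2-3p shared the seed CAGUGGG, miR-200a-3p and miR-141-3p shared AACACUG, and both let-7 members shared GAGGUAG. The seed of miR-7034-5p, CCGGGAG, was also found at Mir7071.

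The libraries held 7278161 (Young 1) to 26093521 (Aged 3) counts in peaks, and the others between 19208483 and 25901670. Values below are CPM, counts scaled to a library of 1000000 with TMM-adjusted library sizes, and aged was compared with young by the quasi-likelihood F test of edgeR over 132055 tested peaks. Of the 14 epithelial marker genes, 12 had a promoter peak, among them Epcam at 64.0 ± 4.82 CPM in young and 67.7 ± 1.40 CPM in aged (SD, n = 3), and their summed level was 463 to 506 CPM in the young and 494 to 523 CPM in the aged libraries. Promoter peaks were found for 3 of 11 immune, 5 of 9 stromal and 4 of 9 endothelial or neural marker genes, without one for Ptprc, Cd3e, Csf1r or Pecam1. The strongest of each list were Coro1a (mean 9.69 CPM in young and 9.11 CPM in aged), Pdgfra (18.4 and 19.9 CPM) and Tubb3 (8.80 and 10.5 CPM). The summed levels of the lists were 10.8 to 13.4 CPM against 10.2 to 11.3 CPM for immune, 20.1 to 26.5 against 23.7 to 28.3 CPM for stromal, and 17.3 to 22.7 against 19.1 to 21.3 CPM for endothelial and neural markers, young against aged. None of these marker promoters was called by edgeR or DESeq2, with an unadjusted p under 0.05 in edgeR for 3 epithelial promoters and 1 endothelial one (Kdr). In bulk samples, a change in the share of a cell type and a change within its cells cannot be told apart.

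Per kb, small RNA peaks were near the median of all peaks and below that of peaks at coding starts, and most did not cover the annotated start. The median level was 1.74 CPM per peak, or 6.20 CPM per kb of peak, against 6.03 CPM per kb over all peaks and 19.5 CPM per kb at 12285 peaks within the same distance of protein-coding starts. Per kb, snRNA genes had the highest median of the 5 types at 7.26 CPM, followed by miRNA at 6.88, snoRNA at 5.46, misc_RNA at 5.41 and scaRNA at 3.44 CPM. Only 313 of the 997 peaks (31.4%) covered the annotated start, against 71.7% of those at coding starts. A peak covered the start when the start lay between its ends, which favours wide peaks. The median width was 286 bp for the small RNA peaks and 701 bp for those at coding starts. The deposited annotation put 624 of the 997 in its promoter class, 372 in the class of transcription ends and 1 in an exon, and 542 lay inside the span of a protein-coding gene. These comparisons of levels are descriptions without a test.

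Peaks that covered the start were stronger than those beside it, and also wider, as the definition of covering favours. The part of width in the contrast of levels was not tested. The covering peaks had a median width of 716 bp against 202.5 bp, and a median level of 12.1 CPM per kb against 5.03 CPM per kb. The contrast was 25.6 against 5.89 CPM per kb for snRNA, 13.9 against 5.12 for miRNA, 10.0 against 4.14 for misc_RNA and 7.15 against 4.33 for snoRNA. For scaRNA it was 29.4 against 2.59, with only 2 and 3 peaks. Among covering peaks, genes with a name of their own stood above predicted genes with a Gm symbol: 30.6 CPM per kb for 16 named snoRNAs against 6.05 for 69 predicted ones, and 42.9 for 5 named misc_RNAs against 9.13 for 25 predicted ones. The peaks of the named genes were also wider, with medians of 977 against 309 bp for snoRNA and 732 against 480 bp for misc_RNA. The part of width was not tested here either. Predicted genes made up 61.7% of the 997 peaks and 97.2% of the snRNA peaks. Many are near-identical copies of a snRNA, snoRNA or 7SL gene, among which reads can be split, so their values and those of Rnu6, Rnu1a1, Rn7s2 and the Rnu3b genes are uncertain.

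**Figure D1:**
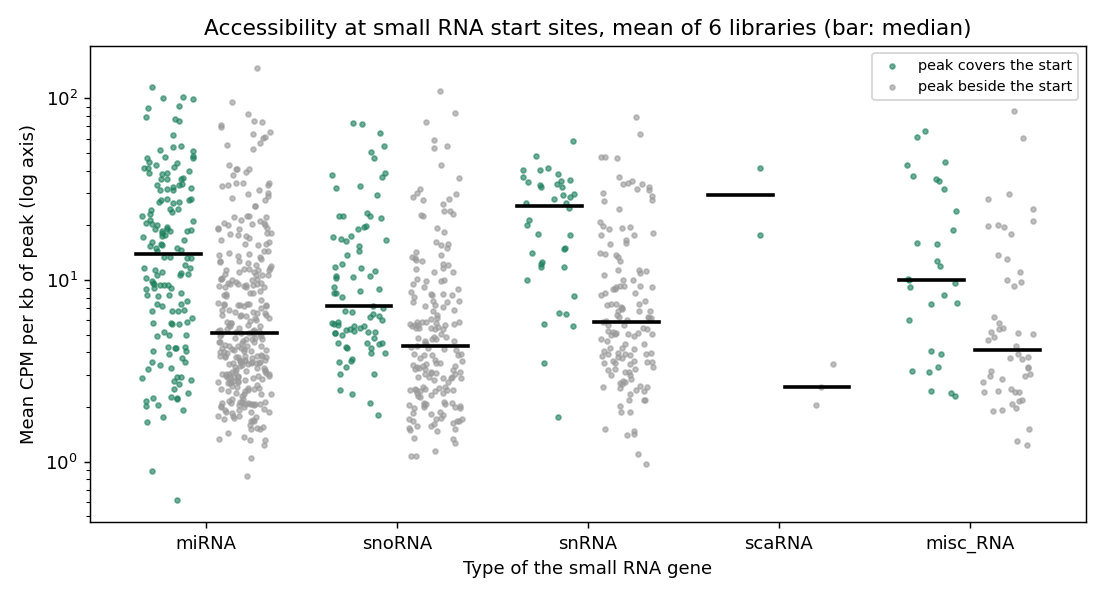
Mean CPM per kb of peak over the 6 libraries (log axis) for each of the 997 peaks, by RNA type; green points cover the annotated start, grey points lie beside it, and bars are medians. The median of the covering peaks is higher for every type. For scaRNA it is 29.4 against 2.59 CPM per kb, with only 2 and 3 peaks. Of the other types, the gap is widest for snRNA, 25.6 against 5.89 CPM per kb.

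For miRNA genes, the annotated start is the end of the hairpin and not that of the primary transcript. All 241 peaks of matched miRNA genes had a deposited distance within 1 bp of the distance from the peak's centre to the hairpin's 5′ end. Only 90 of these peaks (37.3%) overlapped the hairpin, with a median of 13.4 CPM per kb against 5.46 CPM per kb without overlap. Overlap also favours wide peaks, and the part of width was not tested. The strongest small RNA peaks lay at promoters of other genes in part. A RefSeq coding start within 1000 bp or the annotation's coding promoter class marked 134 of the 997 peaks, with a median of 17.3 CPM per kb against 5.65 CPM per kb for the other 863. Mir1938 reached 115 CPM per kb at the start of Ifrd1, Mir5627 reached 101 at the start of Dnajb9, the snoRNA Gm24355 reached 109.9 beside Hibadh and Snord59a reached 83.2 beside Atp5b. Mir210, a miRNA known to be induced by low oxygen, had the highest level of all at 147.5 CPM per kb, and no coding start was found at its peak in the RefSeq promoter table, which lacks some coding starts, or in the annotation's coding promoter class. Its level was 105, 87.9 and 99.6 CPM in Young 1 to 3 and 94.5, 91.5 and 98.0 CPM in Aged 1 to 3, and the groups overlapped.

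Few of these peaks differed between the ages, and as many were called higher as lower. For starts within 500 bp, 1 was called higher and 5 lower. After thinning every library to the size of Young 1, 0 were higher and 2 lower, and 1 of these 2 was also called without thinning. Over all peaks, thinning gave 61 higher and 49 lower of 89910 tested. Such small counts cannot tell whether the directions differ. Of the 997 peaks, 833 passed the filter on low counts and 164 were not tested. At an adjusted p under 0.05 in edgeR, 10 peaks were called (1.2% of those tested, against 1.13% of all peaks), 5 higher in aged (0.619% over all peaks) and 5 lower (0.51% over all peaks). Of these, 9 were miRNA peaks, 2.28% of 395 tested, and 1 was a snRNA peak. No peak was called among 216 snoRNA, 65 misc_RNA and 3 scaRNA peaks tested by edgeR, of which 11, 6 and 0 had an unadjusted p under 0.05. DESeq2 called 6 peaks, all at miRNA genes (0.734% over all peaks). An unadjusted p under 0.05 was reached by 76 of the 833 peaks (9.12%), against 9.71% of all peaks. The CPM of the groups did not overlap for 131 of them (15.7%, against 14.8% over all peaks), with 67 higher and 64 lower in aged (7.67% and 7.08% over all peaks). Of these, 41 higher and 38 lower were miRNA peaks.

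The median log2 fold change, aged over young, was −0.0042 over the 833 peaks and −0.011 over all peaks. By type, the median was 0.016 for miRNA, −0.0040 for snoRNA, −0.033 for snRNA, −0.012 for misc_RNA and −0.083 for the 3 scaRNA peaks. None of the 145 peaks that covered the start at 10 CPM or more was called in edgeR, where 9 had an unadjusted p under 0.05, or in DESeq2, but 5 were called in edgeR with the replicate number as a block (2.67% over all peaks). The called peaks had mean levels from 1.89 CPM (Mir1905) to 11.6 CPM (Mir6943). Just inside the distance limit, 101 peaks at 901 to 1000 bp had a median of 1.32 CPM with 1 called, and just outside, 75 peaks at 1001 to 1100 bp had a median of 1.97 CPM with 1 called.

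**Figure D2:**
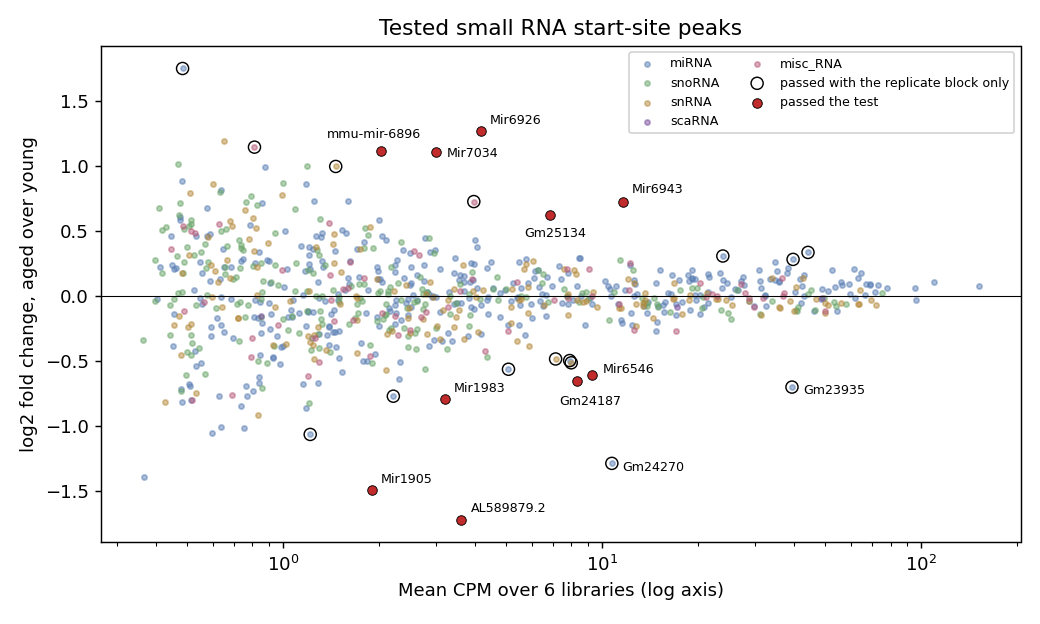
Log2 fold change of aged over young against the mean CPM over 6 libraries (log axis) for the 833 tested peaks, coloured by RNA type. Filled red points are the 10 called peaks, 5 above and 5 below 0, and rings are the 15 peaks called only with the replicate number as a block.

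The peaks of the miRNA genes Mir6926, mmu-mir-6896, Mir7034 and Mir6943 were more open in aged organoids. All lay inside coding genes, at a distance from the start of the host. Mir6926 lies in Sgsm2, a regulator of Rab GTPases, and its peak (chr11:74867228-74867684) was centred 738 bp past the hairpin's 5′ end and 29.4 kb from the Sgsm2 start in the RefSeq table. The peak had 1.81, 3.11 and 2.10 CPM in Young 1 to 3 and 5.01, 5.50 and 7.43 CPM in Aged 1 to 3. Every aged library was above every young one, and the log2 fold change was 1.26 (SE 0.20, edgeR adjusted p = 0.000206). The mature miR-6926-5p shown above is encoded on the minus strand at chr11:74868168-74868189, outside the peak.

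The peak of mmu-mir-6896 (chr1:34116612-34116761) lies in Dst, which encodes the cytoskeletal linker dystonin, 43.5 kb from the Dst start in the RefSeq table. It had 1.53, 1.16 and 1.26 CPM in the young and 3.25, 2.29 and 2.66 CPM in the aged libraries. The groups did not overlap, and the log2 fold change was 1.11 (SE 0.24, edgeR adjusted p = 0.0105). Mir7034 lies in Tmem120a, a gene for a membrane protein, and its peak (chr5:135735420-135736269) covered the hairpin's 5′ end. It had 1.95, 2.21 and 1.52 CPM in the young and 3.84, 3.85 and 4.62 CPM in the aged libraries. The aged values were again all above the young ones, by 1.10 on the log2 scale (SE 0.21, edgeR adjusted p = 0.00194).

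Mir6943 lies in Grk6, a kinase that phosphorylates G protein-coupled receptors, and its peak (chr13:55451848-55452410) was centred 977 bp before the hairpin. It had 7.95, 8.77 and 9.27 CPM in the young and 13.9, 12.9 and 16.6 CPM in the aged libraries. The ranges were separate, with a log2 fold change of 0.72 (SE 0.13, edgeR adjusted p = 0.00127). Within 50 kb of the Mir6943 peak, 2 of 27 other tested peaks were called, both higher in aged (0.619% over all peaks). No other peak was called within 50 kb of Mir6926, mmu-mir-6896 or Mir7034. The same held for the called peaks of Gm25134, Mir1905, Mir6546 and Gm24187 described below. The fifth peak that rose was the snRNA gene Gm25134, a predicted gene inside Opa3, which encodes a mitochondrial protein. Its peak (chr7:19241098-19241375) was centred 894 bp before the start and had 4.88, 6.60 and 4.45 CPM in the young and 7.90, 8.21 and 8.97 CPM in the aged libraries. The groups did not overlap, and the log2 fold change was 0.62 (SE 0.16, edgeR adjusted p = 0.0458).

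The 5 peaks that were less open in aged organoids all belonged to miRNA genes, and 2 of them lay near each other on chromosome 13. The predicted miRNA gene AL589879.2 (chr13:21924679-21925086) had 6.28, 3.67 and 6.86 CPM in the young and 1.76, 1.24 and 1.89 CPM in the aged libraries. The groups were far apart, and this peak fell by 1.72 on the log2 scale (SE 0.23, edgeR adjusted p = 1.32e-05). Mir1983 lies 27.0 kb away, and its peak (chr13:21896902-21897658) covered the hairpin's 5′ end, with the mature sequence on the minus strand at chr13:21896930-21896950. It had 4.18, 3.71 and 4.35 CPM in the young and 2.03, 2.43 and 2.50 CPM in the aged libraries. Without overlap between the groups, it fell by 0.80 on the log2 scale (SE 0.19, edgeR adjusted p = 0.0288).

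The stretch from the Mir1983 peak to a called peak upstream of Zfp184, a zinc finger gene, held 10 tested peaks. Of these, 3 were called lower in aged (0.51% over all peaks) and 7 were not called. The ends of the stretch were set at called peaks, and the AL589879.2 peak between them was already called. The 3 calls are therefore no test of a cluster. The third lower peak (chr13:21936999-21937371) was centred at −7927 bp from the Zfp184 start and went from 9.74 ± 1.66 CPM (SD, n = 3) in young to 3.42 ± 0.205 CPM in aged, a fall by 1.46 on the log2 scale (edgeR adjusted p = 4.43e-07). The other 7 peaks, which lay between these, had adjusted p of at least 0.805 in edgeR. Among them, a peak 10625 bp from the AL589879.2 start had 14.0 ± 2.23 CPM in young and 14.9 ± 2.08 CPM in aged (SD, n = 3).

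The peak of Mir1905 (chr3:88536486-88536783) lies in Mex3a, which encodes an RNA-binding protein known from intestinal stem cells, 4.54 kb from the start of that gene. It had 2.79, 2.62 and 2.99 CPM in the young and 1.08, 0.917 and 0.963 CPM in the aged libraries. Both groups were tight and separate, and the peak fell by 1.49 on the log2 scale (SE 0.24, edgeR adjusted p = 0.000235). Mir6546 lies at Fcgr3, a receptor for immunoglobulin G, and the stronger of its 2 peaks (chr1:171064442-171065435) is in the promoter class of that gene in the deposited annotation. It had 11.02, 9.94 and 12.7 CPM in the young and 8.08, 6.51 and 7.47 CPM in the aged libraries, a fall by 0.61 on the log2 scale without overlap (SE 0.14, edgeR adjusted p = 0.0210). The summed promoters of immune markers, given above, overlapped between the ages. All 3 of these promoters had negative log2 fold changes (median −0.24), none was called by edgeR or had an unadjusted p under 0.05, and their part in this result was not tested. The predicted miRNA gene Gm24187 (chr13:9834307-9834518) had 11.4, 7.42 and 12.05 CPM in the young and 6.45, 5.27 and 7.32 CPM in the aged libraries. The lowest young library stood just above the highest aged one, and the peak fell by 0.66 on the log2 scale (SE 0.17, edgeR adjusted p = 0.0426).

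**Figure D3:**
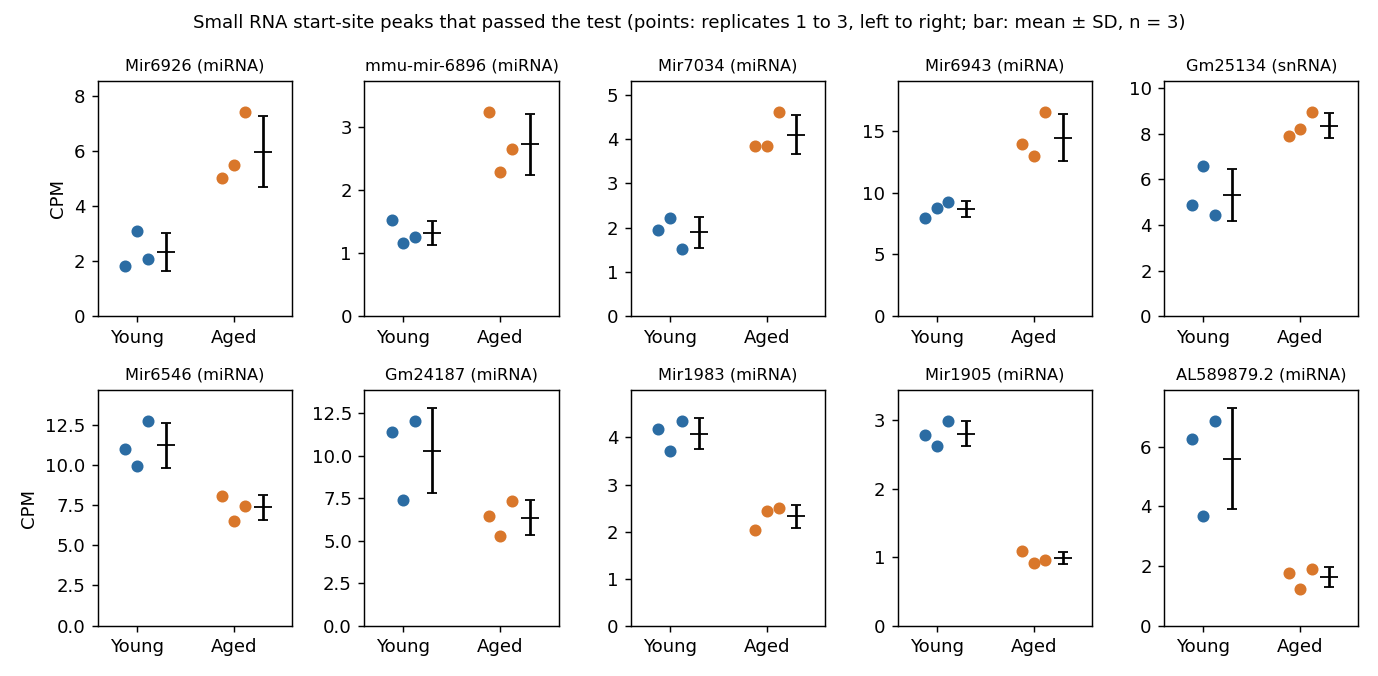
CPM in each library (replicates 1 to 3 from left to right) for the 10 called peaks, with mean ± SD (n = 3 per age). The upper row holds the 5 peaks higher in aged and the lower row the 5 lower in aged, and in no panel do the young and aged points overlap.

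The promoters of the host genes that had a peak within 1 kb of their start were not called. The Mex3a promoter had 7.69 ± 0.806 CPM in young and 7.96 ± 0.501 CPM in aged (SD, n = 3, edgeR adjusted p = 0.977), beside the Mir1905 peak that was lower in all 3 aged libraries. The Grk6 promoter had 73.7 ± 6.66 CPM in young and 71.7 ± 4.33 CPM in aged (SD, n = 3, edgeR adjusted p = 0.947). For Tmem120a, Opa3 and Dst, the edgeR adjusted p was 0.992, 0.971 and 0.261. The Opa3 promoter had 168 ± 20.9 CPM in young and 165 ± 3.44 CPM in aged (SD, n = 3). The other 2 were weak, Tmem120a with 0.640 ± 0.128 and 0.657 ± 0.200 CPM and Dst with 1.96 ± 0.889 and 1.29 ± 0.117 CPM. The log2 fold change at Dst was −0.74, opposite in sign to that of the mmu-mir-6896 peak. At such low levels a change can be missed. Whether a peak inside a gene differed from its promoter in its change was not tested.

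These calls differed in how far they depended on single libraries. AL589879.2, Mir6926, Mir1905 and Mir7034 passed in edgeR without any one library, with the highest adjusted p at 0.000216, 0.00929, 0.00369 and 0.0328. Mir6943 was lost without Aged 3 (edgeR adjusted p = 0.0521), and mmu-mir-6896 without Young 2 or Aged 1 (edgeR adjusted p = 0.0701 and 0.0890). Mir6546 was lost without Young 3, Aged 2 or Aged 3 (edgeR adjusted p = 0.168, 0.132 and 0.110). Mir1983, Gm24187 and Gm25134 were lost without any one library except Young 2, with edgeR adjusted p of 0.0659 to 0.183, 0.0533 to 0.335 and 0.0749 to 0.288. In DESeq2, the adjusted p was 0.116 for Mir1983, 0.104 for Gm25134, 0.0665 for mmu-mir-6896 and 0.0875 for Gm24187, and the other 6 peaks passed. Gm25134 was also lost when library totals replaced the TMM factors (edgeR adjusted p = 0.0595). When every library was thinned to the size of Young 1, AL589879.2 passed (edgeR adjusted p = 0.0312) and the others did not, with edgeR adjusted p of 0.147 to 0.899. The sign of all 10 was the same in the fits named here.

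With the replicate number as a block, 25 of the 833 peaks were called in edgeR (12 higher, 13 lower), beside the 2.67% of all peaks (1.46% higher, 1.21% lower). All 10 peaks above were among them, and 15 were added, of which 10 were at miRNA, 3 at snRNA and 2 at misc_RNA genes. Those named next were chosen after their values were seen, apart from Rnu6, Mirlet7i, Gm24239 and Gm25223. The predicted miRNA gene Gm23935 had 59.0, 32.7 and 55.5 CPM in the young and 29.1, 24.3 and 35.2 CPM in the aged libraries. The aged library was the lower one in every same-numbered pair although the groups overlapped, and the edgeR adjusted p was 0.542 without and 6.47e-11 with the block. Gm24270, another predicted miRNA gene, had 15.6, 5.40 and 24.98 CPM in the young and 5.10, 4.08 and 9.05 CPM in the aged libraries, with edgeR adjusted p of 0.695 and 4.16e-09. Young 2 was the lowest young library at both genes. Mir8104, at the start of the phosphatase gene Ppm1h, had 35.8, 39.0 and 32.4 CPM in the young and 41.7, 47.6 and 41.0 CPM in the aged libraries (edgeR adjusted p = 0.179, with the block 0.0183).

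Rnu6, which encodes the U6 RNA of the spliceosome's catalytic core, was also among the 15. Its peak was weak and centred 558 bp before the start, with 1.26, 0.937 and 0.838 CPM in the young and 1.81, 2.11 and 1.81 CPM in the aged libraries. The groups did not overlap, and the log2 fold change was 0.99 with an edgeR adjusted p of 0.0640 without and 0.0168 with the block. The misc_RNA gene Gm24239 had 3.04 ± 0.874 CPM in young and 4.86 ± 1.28 CPM in aged (SD, n = 3, edgeR adjusted p = 0.129, with the block 0.0175), and Gm25223 had 0.468 ± 0.168 and 1.16 ± 0.0336 CPM (edgeR adjusted p = 0.121, with the block 0.0479). No snoRNA or scaRNA peak was called with the block.

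Start sites of the epithelial miRNA families were open at both ages and none was called by edgeR or DESeq2. Of the 16 genes in this list, 9 had a peak, all were tested, 3 had an unadjusted p under 0.05 and the median log2 fold change was 0.10, with 7 positive values. This median was 0.18 when libraries were thinned, with 8 of the 9 peaks tested, and 0.04 without Young 2. Mir200a, whose family represses the Zeb repressors of epithelial genes, had 67.8, 63.7 and 69.3 CPM in the young and 71.8, 68.0 and 72.3 CPM in the aged libraries, with overlap (edgeR adjusted p = 0.814). Mir141, which shares the seed AACACUG with Mir200a, had a far weaker peak at 3.56 ± 0.384 CPM in young and 3.82 ± 0.303 CPM in aged (SD, n = 3, edgeR adjusted p = 0.918). Per kb of peak, Mir200a had 42.0 and Mir141 had 29.5 CPM.

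Mir203, known for its part in epidermal differentiation, had 58.8, 59.0 and 53.2 CPM in the young and 63.8, 68.9 and 64.7 CPM in the aged libraries. Its groups did not overlap, but the edgeR adjusted p was 0.307. The same held for Mir194-2, an intestinal miRNA gene, with 49.5, 46.3 and 50.9 CPM in the young and 57.7, 52.1 and 57.8 CPM in the aged libraries (edgeR adjusted p = 0.386). Mir375, known from endocrine cells, had 39.3, 37.9 and 29.9 CPM in the young and 39.0, 39.7 and 41.2 CPM in the aged libraries, with overlap (edgeR adjusted p = 0.580). Mir802 had 20.2 ± 1.16 CPM in young and 20.3 ± 0.790 CPM in aged (SD, n = 3, edgeR adjusted p = 0.993), and Mir205, a weak peak, had 0.963 ± 0.167 and 0.571 ± 0.0640 CPM (edgeR adjusted p = 0.452). Summed over the 9 peaks, the level was 237 to 249 CPM in the young and 262 to 268 CPM in the aged libraries, which did not overlap. The summed promoters of the epithelial markers overlapped between the ages, with a median log2 fold change of 0.09, and their part in this difference was not tested.

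The let-7 miRNAs, which restrain growth genes and are themselves held back by Lin28 proteins, had a peak at 2 of 12 genes. Mirlet7i had 21.3, 25.2 and 17.3 CPM in the young and 25.4, 27.9 and 26.0 CPM in the aged libraries. The lowest aged library was just above the highest young one, and the log2 fold change was 0.31 with an edgeR adjusted p of 0.274 without and 0.0232 with the block. Mirlet7g, with the same seed, had 0.631 ± 0.245 CPM in young and 0.846 ± 0.0330 CPM in aged (SD, n = 3, edgeR adjusted p = 0.880). No peak of the set was assigned to any of the 15 genes of the mir-17-92 list, a family that promotes proliferation. A peak near such a hairpin but nearer to another annotated start would not be counted.

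Of 22 miRNA genes linked to inflammation and senescence, 8 had a peak and 7 were tested, with none called by edgeR or DESeq2, 1 at an unadjusted p under 0.05, and a median log2 fold change of 0.15, or 0.02 when libraries were thinned. Mir22 had 25.9 ± 3.26 CPM in young and 28.4 ± 1.77 CPM in aged, and Mir212 had 15.8 ± 1.57 and 16.3 ± 1.42 CPM (SD, n = 3). Mir29a and Mir29c, which share the seed AGCACCA and are known to target collagen mRNAs, differed in direction. Mir29a had 4.32, 5.36 and 5.71 CPM in the young and 6.05, 6.47 and 6.70 CPM in the aged libraries, while Mir29c had 2.93, 2.66 and 2.62 CPM in the young and 2.03, 1.65 and 2.00 CPM in the aged libraries. The groups did not overlap at either gene, but neither was called (edgeR adjusted p = 0.607 and 0.412), and the difference between the genes was not tested. The peak of Mir34a, a target of p53, was too weak to be tested, with counts that gave 0 CPM in Young 1 and Young 3 and at most 0.321 CPM in Aged 2.

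Of 6 miRNA genes in the Hox clusters, which mark position along the body axis, 3 had a total of 4 peaks at 0.481 to 3.96 CPM and none was called by edgeR or DESeq2, with 1 at an unadjusted p under 0.05. Their median log2 fold change was 0.19, and −0.24 when libraries were thinned, which left only 2 of the 4 peaks in the test. Mir196b had 2.09, 2.40 and 1.89 CPM in the young and 1.72, 1.47 and 1.39 CPM in the aged libraries, without overlap (edgeR adjusted p = 0.489). Of 32 miRNA genes known from other cell types, only Mir145a (smooth muscle), Mir9-3 and Mir124a-3 (both neural) had a peak, with a sum of 8.17 to 10.5 CPM in the young and 8.85 to 9.86 CPM in the aged libraries. None of the 3 was called by edgeR or DESeq2 or had an unadjusted p under 0.05.

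**Figure D4:**
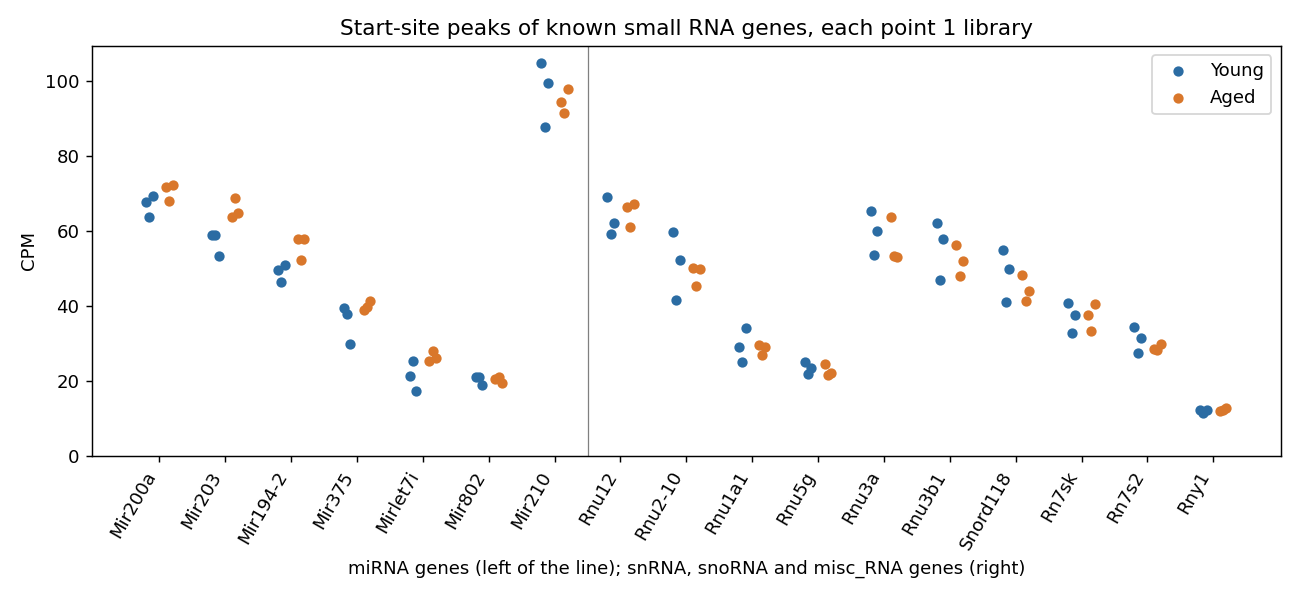
CPM at the start-site peak of 7 miRNA genes and 10 snRNA, snoRNA and misc_RNA genes, each point 1 library, with young in blue and aged in orange. Mir203, Mir194-2 and Mirlet7i show aged points above the young ones, of which only Mirlet7i was called, and only with the replicate block, and at the genes right of the line the points of the ages mix.

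The U12, U2, U1 and U5 genes Rnu12, Rnu2-10, Rnu1a1 and Rnu5g had peaks over their starts and were not called by edgeR, while the weak Rnu6 peak described above lay beside its start. Rnu12, which encodes the U12 RNA of the minor spliceosome, had 69.0, 59.3 and 62.0 CPM in the young and 66.5, 61.2 and 67.1 CPM in the aged libraries (edgeR adjusted p = 0.924). Rnu2-10, a U2 gene, had 59.7, 41.6 and 52.2 CPM in the young and 50.2, 45.3 and 49.9 CPM in the aged libraries (edgeR adjusted p = 0.916). In both genes, replicate 2 was the lowest library of its age. Rnu1a1, a U1 gene, had 29.3 ± 4.58 CPM in young and 28.5 ± 1.41 CPM in aged, and Rnu5g, a U5 gene, had 23.4 ± 1.61 and 22.7 ± 1.52 CPM (SD, n = 3). Per kb of peak, Rnu12 had 47.8, Rnu2-10 had 37.1, Rnu1a1 had 34.9 and Rnu5g had 24.9 CPM. The 3 highest levels per kb of the type were those of predicted genes, Gm24381 with 78.8 CPM beside Ctnnbip1, Gm25794 with 63.7 CPM at the Bsg promoter and Gm25939 with 58.01 CPM, and none was called by edgeR.

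The U3 genes Rnu3a and Rnu3b1 and the U8 gene Snord118, whose RNAs act in ribosomal RNA processing, had peaks over their starts, and the peak of another U3 gene, Rnu3b2, was lower at 14.4 ± 2.35 CPM in young and 13.3 ± 0.465 CPM in aged (SD, n = 3). Rnu3a had 65.4, 53.6 and 60.1 CPM in the young and 63.7, 53.3 and 53.1 CPM in the aged libraries (edgeR adjusted p = 0.886), and Rnu3b1 had 62.2, 47.0 and 57.9 CPM and 56.3, 48.0 and 51.9 CPM (edgeR adjusted p = 0.850). Snord118, the U8 gene, had 54.9, 41.1 and 49.9 CPM in the young and 48.2, 41.2 and 44.0 CPM in the aged libraries (edgeR adjusted p = 0.777). The groups overlapped at Rnu3a, Rnu3b1 and Snord118. The smallest p-values of the type belonged to Gm25916, Gm23860 and SNORA17, with log2 fold changes of 0.99, −0.56 and 0.87 and edgeR adjusted p of 0.215, 0.253 and 0.263. SNORA17, inside Gsk3b, had 0.558, 0.937 and 0.524 CPM in the young and 1.31, 1.24 and 1.42 CPM in the aged libraries. Its groups did not overlap. Of the 5 scaRNA peaks, Gm23119 had 48.9 ± 3.27 CPM in young and 48.5 ± 4.14 CPM in aged, and Scarna2 had 17.7 ± 1.43 and 16.6 ± 0.638 CPM (SD, n = 3, edgeR adjusted p = 0.973 and 0.881).

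The misc_RNA genes with their own promoters also overlapped between the ages. Rn7sk, which encodes the 7SK RNA that restrains transcription elongation, had 40.7, 32.7 and 37.7 CPM in the young and 37.5, 33.3 and 40.6 CPM in the aged libraries (edgeR adjusted p = 0.972). Vaultrc5, the vault RNA gene, had 36.9 ± 2.30 CPM in young and 36.8 ± 1.20 CPM in aged, and Rn7s2, a gene for the 7SL RNA of the signal recognition particle, had 31.1 ± 3.51 and 28.8 ± 0.806 CPM (SD, n = 3). Rny1, a Y RNA gene, had 11.95 ± 0.544 CPM in young and 12.2 ± 0.403 CPM in aged (SD, n = 3). Of the 27 genes in the list of RNA polymerase III and other short noncoding RNA genes, 14 had a total of 15 peaks, none was called by edgeR or DESeq2, 1 (Rnu6) had an unadjusted p under 0.05, and the median log2 fold change was −0.03 with 7 positive values, or 0.03 when libraries were thinned. Their summed level was 374 to 459 CPM in the young and 390 to 427 CPM in the aged libraries.

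Summed over all peaks of a type, accessibility differed little between the ages. The miRNA peaks summed to 4512, 4420 and 4413 CPM in the young and 4579, 4531 and 4634 CPM in the aged libraries. The aged sums were all higher, but by a log2 ratio of only 0.04, which fell to 0.021 without peaks within 1000 bp of a RefSeq coding start. For snRNA, the sums were 1630 ± 92.3 CPM in young and 1583 ± 47.4 CPM in aged, and for snoRNA 1351 ± 49.3 and 1321 ± 29.3 CPM (SD, n = 3). For misc_RNA they were 582 ± 14.99 and 581 ± 13.5 CPM, and for scaRNA 68.2 ± 2.29 and 66.5 ± 5.10 CPM (SD, n = 3). In these 4 types the libraries of the ages overlapped. No test was run on these sums.

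**Figure D5:**
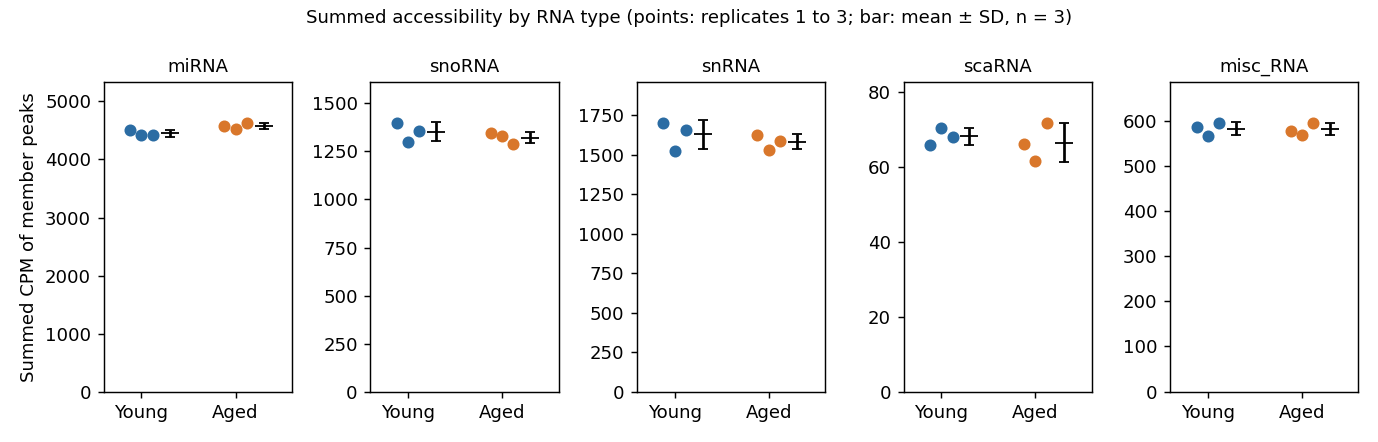
Summed CPM of all peaks of each RNA type in each library (replicates 1 to 3), with mean ± SD (n = 3 per age) and axes from 0. The aged libraries lie above the young ones for miRNA, 4531 to 4634 against 4413 to 4512 CPM, and overlap them for the other types.

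Promoters of the genes whose proteins make and handle these RNAs were compared in 3 lists with 63 genes. A promoter peak was found for 48, of which 46 were tested and 1 was called by edgeR, higher in aged (0.619% higher and 1.13% called over all peaks). This was Lin28b, which encodes an RNA-binding protein that blocks let-7 maturation. Its peak, centred 899 bp past the start, had raw counts of 1, 18 and 5 in Young 1 to 3 and 27, 25 and 34 in Aged 1 to 3. The CPM was 0.359 ± 0.281 in young and 1.22 ± 0.0815 in aged (SD, n = 3), without overlap, and the log2 fold change was 1.47 (edgeR adjusted p = 0.0423, with the block 0.00564). The call was lost in DESeq2 (adjusted p = 0.237) and in edgeR without Young 1, Young 3, Aged 1, Aged 2 or Aged 3 (adjusted p = 0.127, 0.241, 0.0935, 0.0669 and 0.181).

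None of the other promoters tested in these lists was called by edgeR or had an unadjusted p under 0.05. Drosha and Dicer1, the nucleases of miRNA maturation, had 58.7 ± 7.04 and 29.1 ± 2.54 CPM in young and 59.99 ± 1.98 and 29.1 ± 2.46 CPM in aged (SD, n = 3, edgeR adjusted p = 0.926 and 0.984). Ago2, which holds the miRNA, had 29.2 ± 3.23 and 31.3 ± 1.28 CPM (SD, n = 3, edgeR adjusted p = 0.801). The smallest p-values of the snoRNP list belonged to Nop10 (19.6 ± 1.76 CPM in young and 17.7 ± 1.17 CPM in aged, edgeR adjusted p = 0.756) and Nop58 (edgeR adjusted p = 0.805). In the list of snRNA transcription and assembly they belonged to Snrpd1, a core protein of snRNPs (11.2 ± 1.61 and 9.44 ± 0.688 CPM, edgeR adjusted p = 0.660), and Gemin5, which binds snRNAs for assembly (9.52 ± 0.623 and 11.04 ± 1.54 CPM, edgeR adjusted p = 0.677). The median log2 fold change over the 46 tested promoters was 0.0034, beside −0.011 over all peaks.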

How the data were processed

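ATAC-seq cuts open chromatin with the transposase Tn5. The deposited files are raw counts per consensus peak, which per the file headers the authors made with featureCounts, and an annotation of the same peaks. Per the submitters' processing notes, the build was GRCm38 and the tools included Trim Galore 0.6.4, BWA 0.7.17-r1188, Picard 2.23.1, MACS2 2.2.7.1 and featureCounts 2.0.1. How duplicates, multi-mapping reads and the Tn5 offset were treated was not given in the sources used here. Reads without molecular identifiers carry more than counting error.

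Counts were joined to the annotation by peak. Aged was compared with young (3 libraries each) by edgeR 4.0.16 in R 4.3.3 (robust quasi-likelihood F test, TMM factors, filterByExpr with a minimum count of 10), and p-values were adjusted over 132055 peaks by the Benjamini-Hochberg method and called under 0.05. The fit was tested on simulated data for aged against young with 132283 peaks, where it recovered 39 of 100 peaks changed by 1 and 98 of 100 changed by 2 on the log2 scale. It made 4 false calls. The simulation gave every peak the same spread beyond counting error, had no replicate effect and changed only peaks above a minimum count. Recovery in the real libraries can therefore differ. No pair of libraries agreed within sampling noise (chi-square per degree of freedom 1.72 to 3.81). Same-numbered libraries share a culture code and passage in the titles and were taken as pairs, although the descriptions give all libraries the same culture code, so what a pair shares beyond its passage is uncertain. Their deviations from the group means correlated at 0.0738, 0.126 and 0.144, against −0.125 to 0.00328 for young and aged libraries with different numbers. Deviations within an age cancel at every peak, so a positive value for a pair forces a negative value among the others. Part of this contrast is therefore built in, and it is no test of the pairing.

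Alternatives were RLE factors, library totals, no filter, DESeq2 1.42.0, the replicate number as a block, thinning to 7278161 counts, leaving out each library, other distances, 1 peak per gene, and leaving out peaks near coding starts. The RefSeq promoter table lacks some coding starts, so peaks near one can be missed. Peaks were chosen for naming as every called one and the 3 strongest per kb and the 3 smallest p of each type. Added to these were up to 4 of each of 7 small RNA lists by counts, and the 2 smallest p of each protein list. Some of the chosen peaks are not described above, such as Gm25545, Gm23596, Gm22265 and Mir615. Snord118 was named outside this rule. Further genes of these lists and block-only peaks were named after their values were seen. The members and lists were chosen with earlier results of these data known. Gene and miRNA sequences and positions came from RefSeq tables of GRCm38.p6.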

Additional observations from a re-analysis of the deposited data

How the results depend on the processing

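The count of called small RNA peaks was 10 in edgeR and 6 with DESeq2, 25 with the replicate block, 2 after thinning to the shallowest library (580 tested, 0 higher and 2 lower), 6 for starts within 500 bp (508 tested, 1 higher and 5 lower), and 5 to 15 when 1 library was left out, with 6 without Aged 1, 5 without Aged 3 and 15 without Young 2. Over all peaks it was 1491, and 883, 3523, 110 and 830 (without Aged 3) to 1902 (without Young 2) under the same settings. The replicate block, with the pairing taken from the titles, kept all 10 calls. For the promoters of small RNA proteins, the count of 1 went to 0 with DESeq2 and after thinning, and was 0 to 1 when 1 library was left out. The log2 ratio of summed miRNA accessibility of 0.04 moved to 0.021 without peaks near a RefSeq coding start, and to 0.016 when peaks in the coding promoter class were also left out, a setting chosen after seeing the data. The cause of these changes was not tested. RLE factors, library totals, no filter and 1 peak per gene left 9 to 11 small RNA peaks called. Among values of single peaks, 609 kept their side of the threshold or moved within the spread, 35 lost and 26 gained the threshold, 5 moved further, and none reversed. The ratios for snoRNA, scaRNA and misc_RNA lay within the spread of libraries and changed sign under some settings.

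Depth limits the weak peaks most: Young 1 held 5283 empty peaks of 156733, against 123 to 718 in the others.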
